A study of Homo sapiens with 8 samples.

Results

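Homeobox genes encode transcription factors, and they were taken here as the rows whose gene name contains the word homeobox, without *ZEB1* and without pseudogenes and antisense genes. This rule found 83 of the 13842 genes of the table. Of these, 18 lie in the HOX clusters and 65 elsewhere in the genome. The rule reads names alone, so it used no expression value. Its members include *POU2AF1* and *PBXIP1*, which are cofactor proteins named after the factors they bind, and it passes over *PITX1*, a homeobox gene with another kind of name.

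The homeobox codes for the homeodomain, a small helical fold that binds DNA. The HOX genes sit in clusters whose order along the chromosome follows the order in which they pattern the body axis, and they bind DNA together with cofactors of the TALE class, PBX, MEIS and PKNOX. Their state is kept by Polycomb proteins, which hold them silent, and by trithorax proteins, which keep them active, and retinoic acid switches on the 3′ end of the clusters. Other classes, such as NKL, LIM, PRD and SINE, specify particular organs and cell types.

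The data are RNA-seq libraries of 2 human breast epithelial cell lines, with 2 libraries in each of 4 groups. MCF10A is a non-tumorigenic line, and DCIS.COM is a line of the same lineage that models ductal carcinoma in situ. Cells of each line carried either the pLOC lentiviral vector with the long noncoding RNA *MALINC1* (pLOC-*MALINC1*) or the vector without an insert (pLOC-empty), and all 4 groups had been selected with blasticidin. The study asked what *MALINC1* changes in normal and pre-invasive breast cells. The medium of MCF10A held epidermal growth factor, hydrocortisone, insulin and cholera toxin, which the labels do not list for DCIS.COM, so line and medium cannot be told apart in any comparison of the lines. The labels do not say whether libraries of a group came from separate cultures, so the p-values measure the spread between these libraries, which may be technical.

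The libraries held between 20604377 and 37550457 reads on genes. Levels are given as CPM, the reads of a gene scaled to the size of its library as normalized by the authors. This size is not the plain sum of reads on genes. A gene without reads stands at 0.0713 CPM because a prior count had been added. *MALINC1* stood at 1.07 to 1.58 CPM in the 4 pLOC-empty libraries and at 11.8 to 24.5 CPM in the 4 pLOC-*MALINC1* libraries. The 8 basal breast epithelial markers were all present, with a summed level of 20990 to 29090 CPM in MCF10A and 4816 to 5368 CPM in DCIS.COM. The 5 luminal markers tested summed to 1287 to 1654 and 3249 to 3498 CPM. With pLOC-empty, 6 of the 8 basal markers were lower in DCIS.COM. *TP63* (mean 4.99 CPM in MCF10A against 56.7 in DCIS.COM) and *ITGA6* (1142 against 1823) were higher there. Of the luminal markers, *ESR1* (1.84 against 2.29 CPM) and *GATA3* (6.87 against 7.54 CPM) differed little. Of the listed markers of other cells, 1 of 5 fibroblast, 1 of 3 endothelial and 2 of 4 leukocyte genes were among the genes measured. *COL1A2*, *COL3A1*, *PDGFRB*, *DCN*, *VWF*, *CDH5*, *PTPRC* and *CD3E* were not among them. *COL1A1* (fibroblast) was at 1.58 to 15.9 CPM and *PECAM1* (endothelial) at 0.159 to 7.28 CPM. *CD68* with *CD14* (leukocyte) stood at 4.25 to 14.4 CPM in sum. The measured markers of other cells also moved with the groups, and their part in the results was not tested. In such bulk libraries, fewer cells of a kind and less RNA per cell cannot be told apart.

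Homeobox genes were low among the genes measured. Levels are compared between genes per length, as the mean CPM over the 8 libraries per kb of exon. On this scale the median level was 1.01 CPM per kb for the 18 HOX genes and 0.853 for the 65 others, against 4.43 for the 13165 genes of the table with an exon length. The levels ran from 0.312 to 8.70 CPM per kb in the HOX genes and from 0.0336 to 17.0 in the others. By this measure the Iroquois factor *IRX4* was highest with 17.0 CPM per kb, followed by its relatives *IRX2* and *IRX3* with 13.6 each and *IRX5* with 11.8. The highest zinc finger homeobox gene was *ADNP2* with 9.81 CPM per kb, and the highest HOX gene was *HOXA5* with 8.70. *PBXIP1* had 6.21 CPM per kb. The leading members of the other classes were *SIX4* (SINE) with 3.87 CPM per kb, *NKX2-5* (NKL) with 3.06, *CUX1* (CUT) with 1.98, *ESX1* (PRD) with 1.83 and *LMX1B* (LIM) with 1.58. *HMBOX1* (HNF) had 1.02 CPM per kb, *POU5F1* (POU) 0.635 and *MNX1*, the only HOX-linked gene, 0.479. Of the 18 HOX genes, 10 belong to HOXA, 3 to HOXB and 5 to HOXC, and HOXD genes were not analysed here.

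More homeobox genes were called between the 2 cell lines than between the vectors within a line. A gene was called when its adjusted p was below 0.01 and its change was over 2-fold, by limma on all 13842 genes. With pLOC-empty, 44 of 83 members were called between DCIS.COM and MCF10A, 24 higher and 20 lower in DCIS.COM. This is 53% of the members, against 28.6% of all genes (15.6% higher and 13% lower). At any fold 65 members (78.3%) had an adjusted p below 0.01, close to the 73.9% of all genes, while the share over 2-fold was higher. The HOX genes (10 of 18) and the other homeobox genes (34 of 65) were called at shares of 55.6% and 52.3%. The median size of the log2 difference was 1.14 for HOX genes, 1.10 for the others and 0.56 for all genes. A gene that is read in 1 line only entered the table through that line and had to differ, so these shares are descriptions.

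**Figure D1:**
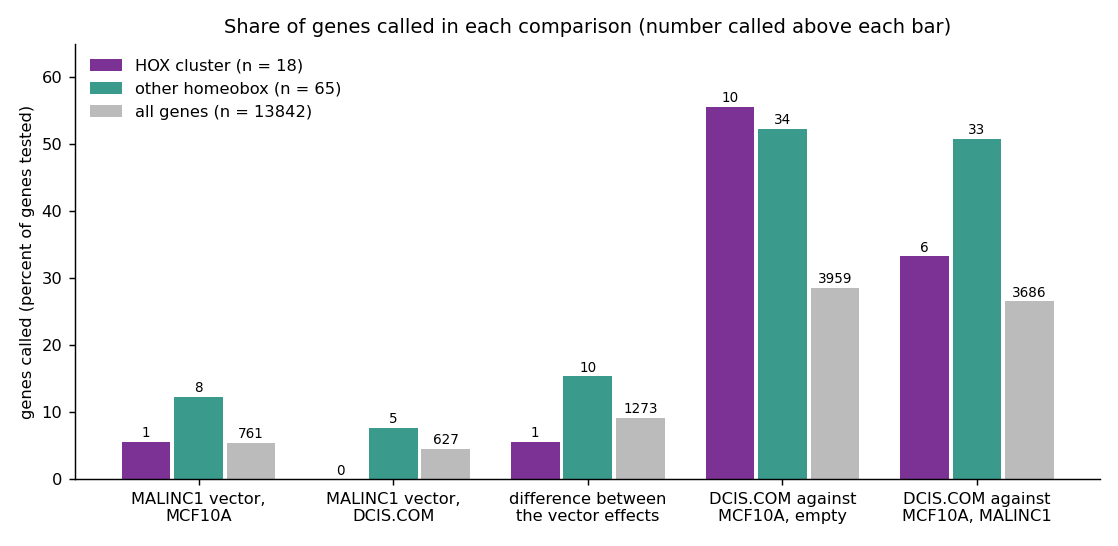
Percent of genes called (adjusted p below 0.01 and over 2-fold) in each of 5 comparisons, for the 18 HOX cluster genes, the 65 other homeobox genes and all 13842 genes, with the number called above each bar. The bars of the line comparisons stand at 33.3% to 55.6% for both homeobox sets against 26.6% and 28.6% for all genes, and those of the vector comparisons at 0% to 12.3%.

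The clearest differences were genes read in 1 line and at the floor in the other, where the floor means 3 reads or fewer in every library of a line. At the floor were 7 members in MCF10A only and 4 in DCIS.COM only. The share of all genes at the floor in 1 line only was not computed, so these counts describe the members alone. Among them are both members of the MSX family, BMP-induced repressors of tooth, skull and mammary development, which took opposite lines. *MSX2* had no reads in the 4 MCF10A libraries, and stood at 6.60 and 5.42 CPM in DCIS.COM pLOC-empty and at 6.97 and 6.25 CPM in DCIS.COM pLOC-*MALINC1*. *MSX1* stood at 0.933 and 1.18 CPM in MCF10A pLOC-empty and at 1.02 and 1.39 CPM in MCF10A pLOC-*MALINC1*, but had at most 0.118 CPM in DCIS.COM. The 2 lines did not overlap for either gene. With pLOC-empty, *MSX2* was at least 44.7-fold higher (limma, adjusted p = 6.06e-11) in DCIS.COM, a limit against 3 reads. *MSX1*, with 1 read in all in DCIS.COM pLOC-empty, was lower there by a ratio of 41.1 (95% exact interval of the reads 7.04 to 1650, limma adjusted p = 7.48e-07), and such intervals cover counting error only.

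The LIM factors *ISL1* and *ISL2*, which specify motor neurons, with *ISL1* also marking heart progenitors, were both read in DCIS.COM alone. *ISL1* stood at 3.43 and 3.13 CPM in DCIS.COM pLOC-empty and at 3.97 and 3.32 CPM in DCIS.COM pLOC-*MALINC1*, and the 4 MCF10A libraries had no reads. *ISL2* stood at 2.64 and 2.31 CPM and at 2.37 and 1.87 CPM in the same libraries, again with no reads in MCF10A. They were at least 24.1-fold (adjusted p = 5.00e-10) and at least 18.1-fold (adjusted p = 2.13e-09) higher in DCIS.COM with pLOC-empty.

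The 250 bases upstream of the start of these pairs are shown because the members of each pair are close relatives that were read in opposite lines (MSX) or in the same line (ISL). The sequences are those of RefSeq (GRCh38.p14), located by an exact and single match in GRCh37, and run 5′ to 3′ on the strand of the gene with CG dinucleotides in capitals. They hold 24 CG for *MSX1* (chr4:4861142-4861391, plus strand), 17 for *MSX2* (chr5:174151335-174151584, plus strand), 27 for *ISL1* (chr5:50679032-50679281, plus strand) and 16 for *ISL2* (chr15:76628864-76629113, plus strand). Each window ends at the base before the annotated gene, and that of *ISL1* overlaps an exon of the divergent noncoding gene *ISL1-DT*.
MSX1: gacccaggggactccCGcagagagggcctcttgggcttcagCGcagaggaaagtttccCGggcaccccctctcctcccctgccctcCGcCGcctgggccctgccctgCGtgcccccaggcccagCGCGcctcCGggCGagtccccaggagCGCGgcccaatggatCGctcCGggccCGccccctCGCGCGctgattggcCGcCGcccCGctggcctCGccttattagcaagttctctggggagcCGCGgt
MSX2: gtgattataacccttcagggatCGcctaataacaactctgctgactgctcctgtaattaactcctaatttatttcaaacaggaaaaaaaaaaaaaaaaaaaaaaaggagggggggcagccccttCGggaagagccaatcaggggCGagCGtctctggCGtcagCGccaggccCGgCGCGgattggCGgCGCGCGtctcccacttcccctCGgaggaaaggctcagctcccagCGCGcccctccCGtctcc
ISL1: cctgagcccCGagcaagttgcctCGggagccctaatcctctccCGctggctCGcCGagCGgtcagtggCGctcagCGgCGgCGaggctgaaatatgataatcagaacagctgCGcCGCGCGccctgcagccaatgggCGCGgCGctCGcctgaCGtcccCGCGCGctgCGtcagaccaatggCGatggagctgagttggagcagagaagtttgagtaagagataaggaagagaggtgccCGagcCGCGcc
ISL2: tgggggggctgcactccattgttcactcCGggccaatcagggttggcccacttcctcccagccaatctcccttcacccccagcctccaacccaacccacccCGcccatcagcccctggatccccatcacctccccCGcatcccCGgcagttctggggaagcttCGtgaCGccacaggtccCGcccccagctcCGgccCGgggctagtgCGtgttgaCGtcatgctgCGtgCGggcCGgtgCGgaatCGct

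Of the 83 members, 51 matched a promoter of the RefSeq table, 8 of them HOX genes. All 8 lie in the HOXA cluster, so HOXB and HOXC are not covered, nor is *HOXA5*. The windows of 250 bases held a median of 19.5 CG dinucleotides in the 8 HOX genes and 24 in the 43 others, against 11 in all 27305 promoters of the table. The homeodomain core motif TAATTA, searched on both strands, was in 0 of 8 HOX windows and in 1 of 43 others (2.33%), against 4.49% of all promoters. The 1 match was in *MSX2*. The AP-1 motif TGACTCA was in 0 HOX windows and in 1 other, that of *DLX1*, against 4.16% of all promoters. The TATA motif TATAAA was in 3 of 8 HOX windows (*HOXA3*, *HOXA9* and *HOXA10*) and in 1 of the 43 others, against 11.1% of all promoters.

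The remaining members that were read in 1 line follow. *NKX2-5*, the cardiac progenitor factor of the NKL class, had no reads in MCF10A and stood at 12.5 and 11.7 CPM in DCIS.COM pLOC-empty and at 12.7 and 13.1 CPM in DCIS.COM pLOC-*MALINC1*. It was at least 90.5-fold higher in DCIS.COM with pLOC-empty (adjusted p = 4.47e-12), the largest limit among the members in that comparison. *NKX2-5* lies on chromosome 5 at a distance of 1489 kb from *MSX2*, and both were read in DCIS.COM alone. *BARX2*, an NKL factor of muscle and epithelia, had 0.106 CPM or less in MCF10A, 3.80 and 3.60 CPM in DCIS.COM pLOC-empty and 19.0 and 17.3 CPM in DCIS.COM pLOC-*MALINC1*. With pLOC-empty, where MCF10A had 1 read in all, it was higher in DCIS.COM by a ratio of 187 (95% exact interval 33.1 to 7450, limma adjusted p = 4.52e-10). With pLOC-*MALINC1*, where MCF10A had no reads, it was at least 160-fold higher (adjusted p = 1.34e-11). *NKX1-2* (NKL) was at least 24.9-fold and *ONECUT2* (CUT), a factor of liver and neural cells, at least 6.39-fold higher in DCIS.COM with pLOC-empty.

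On the MCF10A side, *ZEB2*, a zinc finger homeobox repressor of *CDH1*, stood at 5.76 and 5.34 CPM with pLOC-empty and at 1.80 and 2.15 CPM with pLOC-*MALINC1*, against at most 0.159 CPM in DCIS.COM. With pLOC-empty, where DCIS.COM had 1 read in all, it was lower in DCIS.COM by a ratio of 233 (95% exact interval 41.6 to 9250, limma adjusted p = 2.00e-09). *DLX3*, an NKL factor of epidermis and hair, stood at 1.97 and 2.33 CPM with pLOC-empty in MCF10A and was at least 14.5-fold lower in DCIS.COM pLOC-empty, which had no reads. *HOPX*, a small homeodomain protein that does not bind DNA, had no reads in the 4 DCIS.COM libraries. In MCF10A it stood at 0.554 and 0.780 CPM with pLOC-empty and at 2.97 and 2.38 CPM with pLOC-*MALINC1*, so that DCIS.COM was at least 4.16-fold lower with pLOC-empty and at least 29.3-fold lower with pLOC-*MALINC1*.

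**Figure D2:**
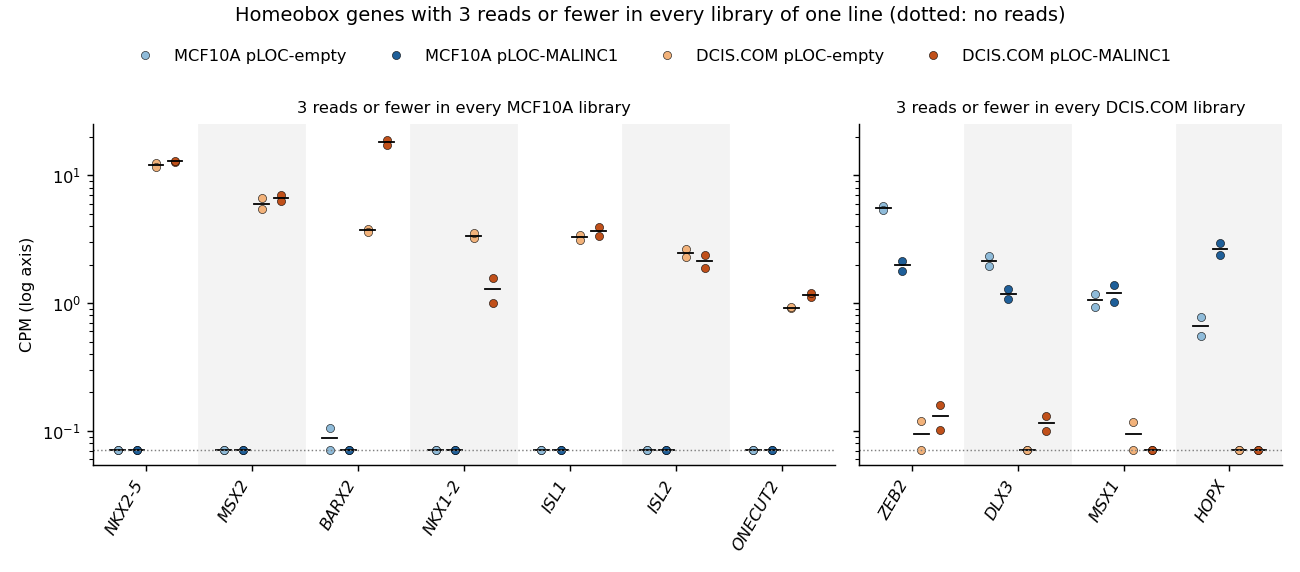
CPM of the 11 homeobox genes with 3 reads or fewer in every library of 1 cell line, on a log axis, with 1 point per library, the group mean as a bar and the value of a gene without reads as a dotted line. In MCF10A 7 genes lie on or near the dotted line, with *NKX2-5* at 11.7 to 13.1 CPM in DCIS.COM, and 4 lie there in DCIS.COM, with *ZEB2* at 1.80 to 5.76 CPM in MCF10A.

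By class, 10 of 11 NKL genes, 4 of 5 LIM, 5 of 7 PRD and 3 of 4 SINE genes were called with pLOC-empty, against 28.6% of all genes. Of the TALE class 5 of 15 were called, and of the zinc finger class 3 of 10. Genes at the floor in 1 line made up 6 of the 10 NKL calls, 2 of the 4 LIM calls and 1 each of the PRD and zinc finger calls. Among members outside the HOX clusters of 5 CPM or more in the higher line, the largest rises in DCIS.COM after *NKX2-5* and *MSX2* were those of *SHOX2*, a factor of limb and sinoatrial node, by 2.62 on the log2 scale (SE 0.15, adjusted p = 3.33e-09), of *SIX4*, of the chromatin organiser *SATB1* by 1.49 (SE 0.10) and of *TGIF2*, a TALE repressor of SMAD signalling, by 1.40 (SE 0.07). The largest falls among them included, after *ZEB2*, those of *TSHZ2*, *IRX3* and *TSHZ1*. *TSHZ2*, a teashirt zinc finger gene, had a log2 difference of -3.83 (SE 0.30, adjusted p = 1.04e-07) and *TSHZ1* one of -1.11 (SE 0.07). *SHOX2* stood at 1.13 to 1.24 CPM in MCF10A and at 7.04 to 7.73 CPM in DCIS.COM over both vectors, without overlap.

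Members of a family showed both like and unlike values. *SIX4*, which acts with EYA proteins in organ growth, stood at 11.5 and 10.5 CPM in MCF10A pLOC-empty, at 15.1 and 14.8 in MCF10A pLOC-*MALINC1*, at 44.7 and 48.6 in DCIS.COM pLOC-empty and at 30.8 and 33.9 in DCIS.COM pLOC-*MALINC1*. With pLOC-empty it was higher in DCIS.COM by 2.08 on the log2 scale (SE 0.07, adjusted p = 3.14e-11), with no overlap of the lines. *SIX2*, a nephron progenitor factor, went the other way with -2.60 (SE 0.32). In the Iroquois group on chromosome 5, *IRX4* was higher in DCIS.COM by 1.24 (SE 0.07) while *IRX2*, 859 kb away, had -0.90 (SE 0.06), and *IRX1*, a further 844 kb away, had 0.91 (SE 0.08). *IRX2* and *IRX1* had adjusted p of 1.04e-08 and 2.64e-07 but changed less than 2-fold. *IRX3*, on chromosome 16 beside *IRX5*, fell from 69.2 and 74.0 CPM in MCF10A pLOC-empty to 19.8 and 19.5 CPM in DCIS.COM pLOC-empty, a log2 difference of -1.86 (SE 0.06, adjusted p = 1.16e-11). *IRX5* had -0.58 (SE 0.05).

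The called HOX genes went in different directions by cluster. With pLOC-empty, 5 of 10 HOXA genes were called, and all 5 were lower in DCIS.COM, while 4 of the 10 had positive differences that were not called. The 3 HOXB genes, at 4.13 CPM or less in every library, were called higher, and of the 5 HOXC genes 1 was called higher and 1 lower. Of all genes, 15.6% were called higher and 13% lower. The median log2 difference was -1.14 for HOXA, 1.51 for HOXB and -0.41 for HOXC, against 0.03 for all genes. The summed level of the HOXA genes was 78.5 and 80.8 CPM in MCF10A pLOC-empty and 37.8 and 38.4 CPM in DCIS.COM pLOC-empty. The HOXB genes summed to 2.87 and 3.21 CPM in MCF10A pLOC-empty and to 7.86 and 8.57 CPM in DCIS.COM pLOC-empty, and the HOXC genes to 22.7 to 24.2 CPM and 26.3 to 26.9 CPM.

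In HOXA, on chromosome 7, *HOXA5* and *HOXA10* were the highest genes by CPM in MCF10A, while in DCIS.COM *HOXA9* was near them. *HOXA5*, which patterns the lower neck and thorax, stood at 30.1 and 27.4 CPM in MCF10A pLOC-empty, 13.8 and 13.5 in MCF10A pLOC-*MALINC1*, 9.82 and 8.90 in DCIS.COM pLOC-empty and 8.11 and 8.08 in DCIS.COM pLOC-*MALINC1*. All 4 groups were apart, and the log2 difference between the lines with pLOC-empty was -1.62 (SE 0.08, adjusted p = 1.47e-09). *HOXA10*, a factor of uterine development, stood at 19.3 to 21.7 CPM in the 4 MCF10A libraries and at 6.95 to 8.23 CPM in the 4 DCIS.COM libraries, with a difference of -1.46 (SE 0.10, adjusted p = 1.38e-08). Nearer the 3′ end, the neighbours *HOXA2* and *HOXA3* had -2.02 (SE 0.22) and -1.14 (SE 0.16). *HOXA9*, between *HOXA10* and *HOXA7*, was at 7.84 to 10.1 CPM in all 8 libraries with a difference of 0.16 (SE 0.10, adjusted p = 0.153). *HOXA7* (0.15, SE 0.26) and *HOXA11* (0.11, SE 0.17) were not called either, nor were *HOXA4* (-1.14, SE 0.36, adjusted p = 0.0108) and *HOXA6* (1.03, SE 0.37, adjusted p = 0.0223).

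**Figure D3:**
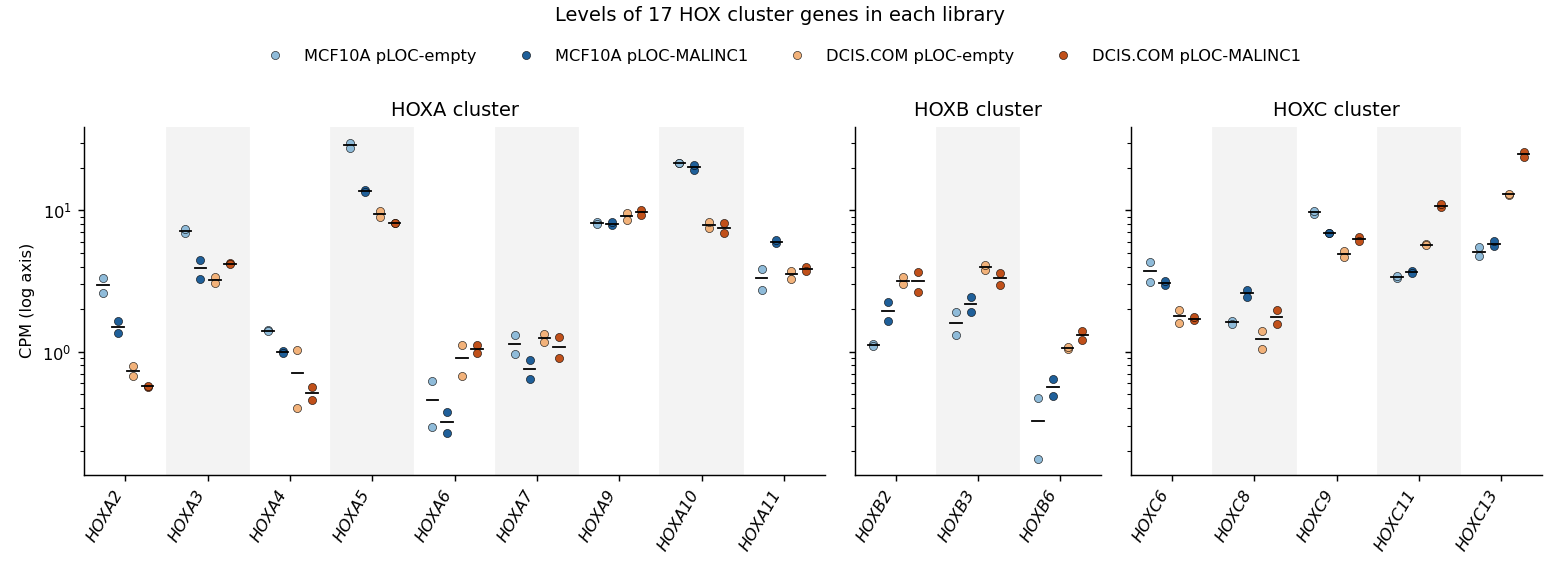
CPM of 17 HOX genes by cluster and number on a log axis, with 1 point per library, coloured by group, and the group mean as a bar. *HOXA5* and *HOXA10* are the highest in MCF10A at 13.5 to 30.1 CPM, the HOXB genes stay at 4.13 CPM or less, and *HOXC13* reaches 23.9 and 25.8 CPM in DCIS.COM pLOC-*MALINC1*.

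The HOXB genes, from the hindbrain end of their cluster for *HOXB2* and *HOXB3*, were higher in DCIS.COM with pLOC-empty. *HOXB2* stood at 1.14 and 1.09 CPM in MCF10A pLOC-empty and at 3.01 and 3.37 CPM in DCIS.COM pLOC-empty, a log2 difference of 1.51 (SE 0.21, adjusted p = 2.09e-05). *HOXB3* had 1.33 (SE 0.21, adjusted p = 6.26e-05) and *HOXB6* 1.89 (SE 0.38, adjusted p = 5.33e-04). In HOXC, *HOXC13*, which drives hair keratin genes, stood at 4.72 to 6.08 CPM in the 4 MCF10A libraries, at 12.9 and 13.0 CPM in DCIS.COM pLOC-empty and at 25.8 and 23.9 CPM in DCIS.COM pLOC-*MALINC1*. Its difference with pLOC-empty was 1.34 (SE 0.10, adjusted p = 6.12e-08). *HOXC6* had -1.04 (SE 0.19), *HOXC8* -0.41 (SE 0.20), *HOXC9* -0.97 (SE 0.11) and *HOXC11* 0.75 (SE 0.12), of which *HOXC6* alone was called. The *HOXC6* call ended without MCF10A pLOC-empty replicate 1 (-0.81) or DCIS.COM pLOC-empty replicate 2 (-0.89), since both fell under 2-fold. The *HOXB6* call ended under quantile normalization (0.98, adjusted p = 0.0299). With a pseudocount of 1 CPM, the calls of *HOXB2* (0.98), *HOXB3* (0.94), *HOXB6* (0.65), *HOXC6* (-0.75) and *HOXA3* (-0.94) ended, all under 2-fold in the same direction.

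With pLOC-*MALINC1* in both lines, 39 of 83 members were called between DCIS.COM and MCF10A, 24 higher and 15 lower in DCIS.COM, which is 47% against 26.6% of all genes (14.4% higher and 12.2% lower). At any fold 61 members had an adjusted p below 0.01, against 73% of all genes. The HOX genes called were 6 of 18 (33.3%) and the others 33 of 65 (50.8%). The HOX genes lower in DCIS.COM included *HOXA2* (-1.40, SE 0.22) and *HOXA10* (-1.42, SE 0.10), and those higher were *HOXC13* (2.10, SE 0.10), *HOXC11* (1.55, SE 0.12) and *HOXA6* (1.74, SE 0.37). *HOXA5* had a smaller difference than with pLOC-empty, -0.76 (SE 0.08), and *HOXA3* one of 0.13 (SE 0.16). Of the 3 HOXB genes limma called 0 and voom 1. Their differences were 0.70 (SE 0.21) for *HOXB2*, 0.60 (SE 0.21) for *HOXB3* and 1.22 (SE 0.38) for *HOXB6*. The *HOXA6* call ended without MCF10A pLOC-*MALINC1* replicate 1 (adjusted p = 0.0130) and without DCIS.COM pLOC-*MALINC1* replicate 1 (adjusted p = 0.0105). Over both line comparisons, which share no library but the same lines and media, 31 members were called in each, 4 of them HOX genes. The share of all genes called in both was not computed, so this count is not read as a trait of homeobox genes.

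**Figure D4:**
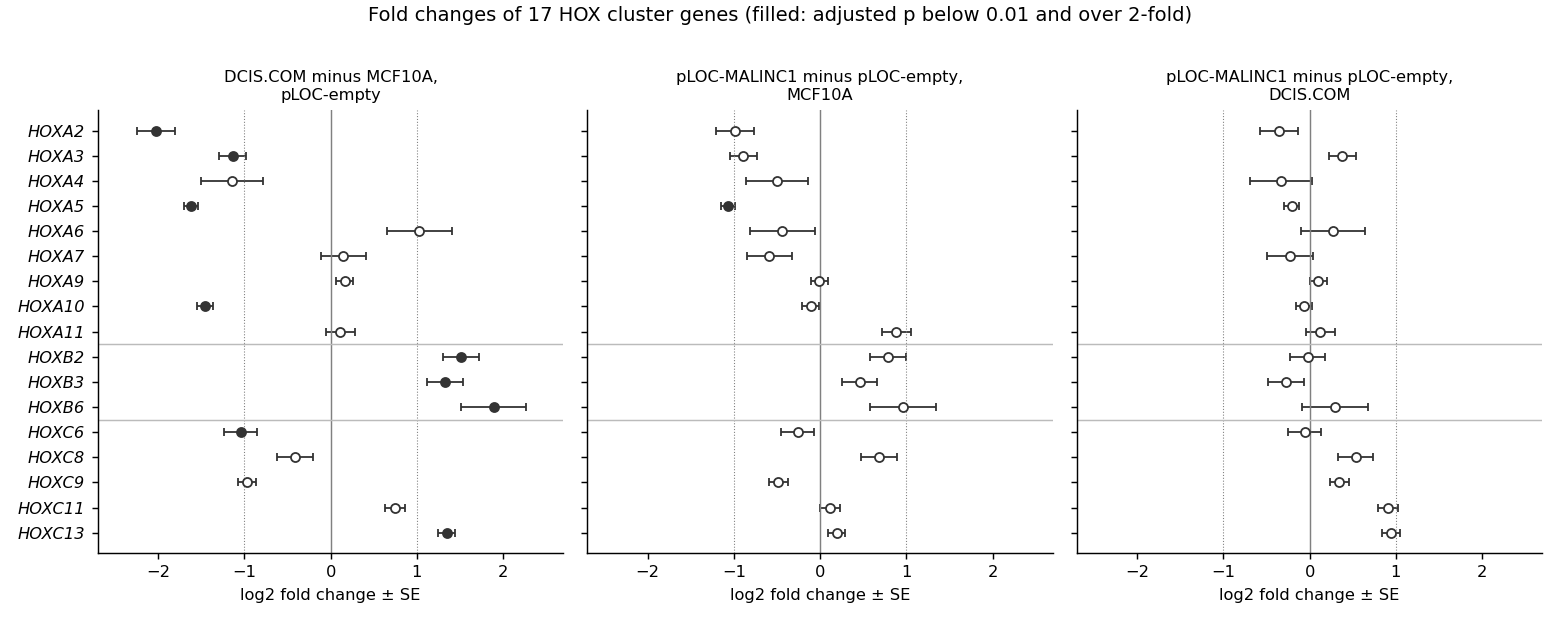
Log2 fold changes with standard errors of 17 HOX genes, in the order of their numbers within HOXA, HOXB and HOXC, for DCIS.COM minus MCF10A with pLOC-empty and for pLOC-*MALINC1* minus pLOC-empty in each line. Filled points passed an adjusted p below 0.01 and 2-fold, which were 9, 1 and 0 of the genes drawn, and the dotted lines mark 2-fold.

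In MCF10A, 9 of 83 members were called between pLOC-*MALINC1* and pLOC-empty, 2 higher and 7 lower with *MALINC1*. This is 10.8%, against 5.5% of all genes (2.99% higher and 2.51% lower). At any fold 26 members (31.3%) had an adjusted p below 0.01, a smaller share than the 39.6% of all genes. The largest rises were in the PRD class. *ESX1*, an X-linked factor of placenta and testis, stood at 0.623 and 0.470 CPM with pLOC-empty and at 2.69 and 2.68 CPM with pLOC-*MALINC1*, a log2 change of 2.31 (SE 0.19, adjusted p = 8.89e-07). *HOPX* rose from 0.554 and 0.780 CPM to 2.97 and 2.38 CPM, a change of 2.01 (SE 0.31, adjusted p = 1.59e-04). The groups did not overlap for either gene, and *ESX1* with pLOC-*MALINC1* came near the 3.03 to 4.56 CPM of DCIS.COM.

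The falls in MCF10A included a HOX gene and a cofactor protein. *HOXA5* fell by 1.07 on the log2 scale (SE 0.08, adjusted p = 5.66e-07), from 30.1 and 27.4 CPM to 13.8 and 13.5 CPM, and was the only HOX gene called. This 1 of 18 is 5.56%, level with the 5.5% of all genes, while 8 of the 65 other homeobox genes (12.3%) were called. *PBXIP1*, which binds PBX proteins and blocks their binding to DNA, stood at 34.4 and 34.3 CPM with pLOC-empty and at 17.0 and 15.9 CPM with pLOC-*MALINC1*, a change of -1.06 (SE 0.06, adjusted p = 6.30e-08). In both genes the pLOC-*MALINC1* libraries lay below both pLOC-empty libraries, and each call held when any 1 library was left out.

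Other genes called lower in MCF10A were of low level. *ZEB2* changed by -1.50 (SE 0.32, adjusted p = 0.00172), *SIX2* by -1.58 (SE 0.32, adjusted p = 0.00140) and *HLX*, an NKL factor of gut and blood cells, by -1.33 (SE 0.29, adjusted p = 0.00201). Each of these 3 calls ended when certain single libraries were left out. *ZEB2* lost its call without either pLOC-empty library or without pLOC-*MALINC1* replicate 1 (adjusted p = 0.0120 to 0.0202), and *HLX* without the same libraries (adjusted p = 0.0103 to 0.0242). *SIX2* lost it without pLOC-empty replicate 1 or pLOC-*MALINC1* replicate 2 (adjusted p = 0.0141 and 0.0202).

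At any fold, 6 HOX genes (33.3%), *HOXA5* among them, had an adjusted p below 0.01 in MCF10A, against 39.6% of all genes. Of the 6, 4 were lower and 2 higher, while 18.1% of all genes were lower and 21.5% higher. The others lower were *HOXA2* (-0.98, SE 0.22), *HOXA3* (-0.89, SE 0.16) and *HOXC9* (-0.48, SE 0.11), and those higher were *HOXA11* (0.88, SE 0.17) and *HOXB2* (0.79, SE 0.21). *HOXA3* stood at 6.86 and 7.33 CPM with pLOC-empty and at 4.47 and 3.28 CPM with pLOC-*MALINC1*. *HOXA11*, at the 5′ end of the cluster, stood at 3.86 and 2.73 CPM and at 5.87 and 6.12 CPM. The 3 HOXB genes had positive changes and 8 of the 10 HOXA genes negative ones, with medians of 0.79 and -0.47 against 0.00 for all genes. *TGIF2* rose from 10.6 and 11.4 CPM to 21.4 and 20.2 CPM, with a change of 0.92 (SE 0.07, adjusted p = 3.05e-07) just under the limit. *TSHZ2* stood at 13.4 and 13.9 CPM with pLOC-empty and at 6.70 and 6.61 CPM with pLOC-*MALINC1*, and its change of -1.04 (SE 0.30) had an adjusted p of 0.0127 in the fit that shares the spread of all groups.

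In DCIS.COM, 5 of 83 members were called between the vectors, 2 higher and 3 lower with *MALINC1*. This is 6.02%, against 4.53% of all genes (1.44% higher and 3.08% lower). At any fold 20 members (24.1%) had an adjusted p below 0.01, against 33.2% of all genes. *BARX2* rose from 3.80 and 3.60 CPM to 19.0 and 17.3 CPM, a log2 change of 2.29 (SE 0.25, adjusted p = 1.13e-05), and *TSHZ2* fell from 1.10 and 0.835 CPM to 0.159 and 0.367 CPM, a change of -1.99 (SE 0.30, adjusted p = 1.98e-04). The groups did not overlap for either gene. The call of *BARX2* held when any 1 library was left out, and that of *TSHZ2* ended in a fit of the 4 DCIS.COM libraries alone (adjusted p = 0.0253) and in a fit without the trend (adjusted p = 0.0101). It also ended with a pseudocount of 0.5 or 1 CPM, where the change of *TSHZ2* was under 2-fold (-0.95 and -0.64).

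*POU2F3*, the POU factor of tuft cells and upper epidermis, changed by 1.34 (SE 0.32, adjusted p = 0.00410), from 0.491 and 0.310 CPM to 1.12 and 0.869 CPM. Its call ended with a pseudocount of 0.5 or 1 CPM (0.73 and 0.51). It also ended without the trend (adjusted p = 0.0219) and in a fit of the 4 DCIS.COM libraries alone (adjusted p = 0.0213). *NKX1-2* changed by -1.42 (SE 0.30, adjusted p = 0.00201), from 3.24 and 3.51 CPM to 1.58 CPM or less in both pLOC-*MALINC1* libraries. The *NKX1-2* call ended with a pseudocount of 1 CPM (-0.94) and in a fit of the 4 DCIS.COM libraries alone (adjusted p = 0.0143). *SIX2* changed by -1.28 (SE 0.32, adjusted p = 0.00632), from 5 reads in each pLOC-empty library to 3 and 1 reads with pLOC-*MALINC1*. It was the only member called between the vectors in both lines, lower with *MALINC1* in each. In DCIS.COM its reads were higher with pLOC-empty by a ratio of 4.02 (95% exact interval 1.16 to 17.6). This call ended by voom (adjusted p = 0.0181) and under quantile normalization (adjusted p = 0.0416). It also ended with a pseudocount of 0.5 or 1 CPM (-0.36 and -0.21), without the trend and in a fit of the 4 DCIS.COM libraries alone. All 3 calls ended when certain single libraries were left out. *POU2F3* lost it without DCIS.COM pLOC-empty replicate 2 or either pLOC-*MALINC1* library (adjusted p = 0.0127 to 0.0468), *NKX1-2* without either pLOC-empty library or pLOC-*MALINC1* replicate 1 (adjusted p = 0.0114 to 0.0281), and *SIX2* without 5 of the 8 libraries (adjusted p = 0.0103 to 0.0581), among them both MCF10A pLOC-empty libraries, which enter its fit through the shared spread.

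No HOX gene was called in DCIS.COM. The count by limma was 0 of 18, with 7 at an unadjusted p below 0.05, and it was also 0 by voom on the recovered reads. Of all genes 4.53% were called, so with 18 genes this 0 is not read as a trait of HOX genes. *HOXC13* and *HOXC11*, the 5′ neighbours of the HOXC cluster, had an adjusted p below 0.01 just under 2-fold, with changes of 0.94 (SE 0.10, adjusted p = 1.07e-05) and 0.91 (SE 0.12, adjusted p = 3.92e-05). *HOXC11* stood at 5.76 and 5.66 CPM with pLOC-empty and at 10.5 and 11.0 CPM with pLOC-*MALINC1*. These were the 2 HOX genes (11.1%) with an adjusted p below 0.01 at any fold, against 33.2% of all genes.

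The effect of the vector differed between the lines for 11 of 83 members (13.3%, against 9.2% of all genes), by a test of the difference itself. The difference was positive for 8 and negative for 3, against 3.98% and 5.22% of all genes, and at any fold 25 members passed, against 35.9% of all genes. *HOXA3* was the only HOX gene of the 11, with -0.89 in MCF10A and 0.38 (SE 0.16) in DCIS.COM and a difference of 1.27 (SE 0.22, adjusted p = 4.82e-04). For *HOXA5* the difference between the lines was 0.86 (SE 0.12, adjusted p = 7.70e-05), under the 2-fold limit, and its own change in DCIS.COM was -0.21 (SE 0.08, adjusted p = 0.0606). *TGIF2* differed by -1.10 (SE 0.09, adjusted p = 1.43e-06), with 0.92 in MCF10A and -0.19 (SE 0.07, adjusted p = 0.0373) in DCIS.COM. *ZFHX3*, a zinc finger homeobox tumour suppressor, differed by 1.28 (SE 0.18), with -0.51 (SE 0.12) in MCF10A and 0.77 (SE 0.12) in DCIS.COM.

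**Figure D5:**
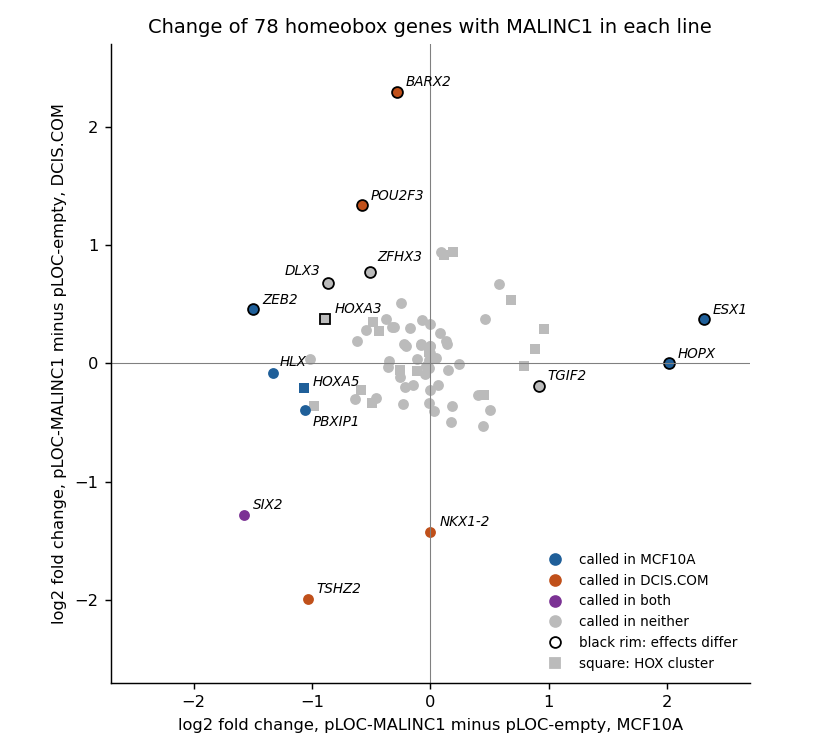
Log2 fold change with *MALINC1* in MCF10A (horizontal) against that in DCIS.COM (vertical) for 78 homeobox genes, with colours for the line in which a gene was called, squares for HOX genes and black rims where the 2 changes differed (adjusted p below 0.01 and over 2-fold). *SIX2* alone was called in both lines, *ESX1* and *HOPX* lie far right, *BARX2* far up and *TSHZ2* far down.

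Among the TALE cofactors of HOX proteins, none of *PBX2*, *PBX3*, *PBX4*, *MEIS1*, *MEIS2*, *MEIS3* and *PKNOX1* was called with *MALINC1* in either line, and their log2 changes lay between -0.54 (*MEIS3*) and 0.17 (*PBX4*) in MCF10A and between -0.49 (*PBX4*) and 0.30 (*PBX3*) in DCIS.COM. Between the lines with pLOC-empty, *MEIS3* was higher in DCIS.COM by 1.10 (SE 0.18, adjusted p = 8.42e-05) and *PBX4* lower, with -1.08 (SE 0.27, adjusted p = 0.00271). The *MEIS3* call ended under quantile normalization (0.76) and with a pseudocount of 0.5 or 1 CPM (0.89 and 0.75), and that of *PBX4* with these pseudocounts (-0.71 and -0.53). The *PBX4* call also ended without MCF10A pLOC-empty replicate 1 (adjusted p = 0.0403) or DCIS.COM pLOC-empty replicate 2 (adjusted p = 0.0205). *PBX2* stood at 23.1 to 29.1 CPM in the 8 libraries, and *MEIS1* at 5.56 to 7.79 CPM. With pLOC-empty, *PBX2* was higher in DCIS.COM by 0.31 (SE 0.06, limma adjusted p = 5.18e-04), under 2-fold.

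The regulators of HOX genes were described from lists of the pathway. Of 31 Polycomb genes, 1 (3.23%, against 5.5% of all genes) was called with *MALINC1* in MCF10A, *CBX7* with a log2 change of -1.41 (SE 0.24, adjusted p = 3.22e-04). In DCIS.COM limma called 0 of 31 (all genes 4.53%), with 14 at an unadjusted p below 0.05 and 0 by voom. Between the lines with pLOC-empty, 4 Polycomb genes (12.9%, against 28.6% of all genes in either direction) were higher in DCIS.COM and 0 lower, led by *CBX6*, a reader of the Polycomb mark, with 4.49 (SE 0.08, adjusted p = 8.14e-14), and with *CBX7* (1.84), *PCGF2* (1.30) and *CBX8* (1.26). The catalytic subunit *EZH2* had -0.60 (SE 0.04). Of 21 trithorax and H3K27 demethylase genes, limma and voom called 0 with *MALINC1* in either line, with 9 and 10 at an unadjusted p below 0.05, while 2 (9.52%) were higher in DCIS.COM with pLOC-empty, *MLLT3* (1.98) and the H3K27 demethylase *KDM6B* (1.36).

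Genes of retinoic acid handling were called in both directions. Of 17 tested, 2 rose and 2 fell with *MALINC1* in MCF10A, and 1 rose and 2 fell in DCIS.COM. The shares called were 23.5% and 17.6%, against 5.5% and 4.53% of all genes. *CRABP2*, which carries retinoic acid to its receptors, rose in both lines, by 1.92 (SE 0.08) and 1.18 (SE 0.08). *DHRS3*, which reduces retinal, had -1.48 (SE 0.04) in MCF10A, and the retinol receptor *STRA6* had -1.60 (SE 0.12). *DHRS9* had -3.52 (SE 0.17) in DCIS.COM. *ALDH1A1*, which makes retinoic acid, was called higher in MCF10A, where it had no reads with pLOC-empty, and lower in DCIS.COM (-1.50, SE 0.33). Between the lines with pLOC-empty 4 of the 17 were higher and 3 lower in DCIS.COM (41.2%, against 28.6% of all genes), *STRA6* with -4.10 (SE 0.12).

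Of 29 noncoding RNAs of the HOX clusters on the list, 4 were tested. In MCF10A, 2 of 4 fell with *MALINC1*, against 2.51% of all genes, *HOXA-AS2* with -1.40 (SE 0.23, adjusted p = 2.49e-04) and *HOTAIR*, from the HOXC cluster, with -1.25 (SE 0.31, adjusted p = 0.00496). By voom 1 of the 4 was called. *HOXA-AS3* had -1.37 (SE 0.39, adjusted p = 0.0105) and *HOTAIRM1* -0.60 (SE 0.14). In DCIS.COM limma and voom called 0 of 4, with 1 at an unadjusted p below 0.05. Between the lines with pLOC-empty *HOTAIR* was higher by 1.84 (SE 0.31) and *HOXA-AS2* lower, with -2.28 (SE 0.23), in DCIS.COM. Exons of 14 of the 18 HOX genes share bases with another annotated gene, all 14 on the opposite strand and 9 also on the same strand. *HOXA7* shares 62.5% of its exon bases with *HOXA-AS3*, and *HOXA3* 17.3% with *HOXA-AS2* and *HOXA-AS3*, while *HOXA2*, *HOXA5*, *HOXC8* and *HOXC11* share 0%. The strand setting of the counting is not given in the sources used here, so reads of the overlapping pairs cannot be told apart.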

How the data were processed

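RNA of subconfluent plates was sequenced as paired-end reads. The paper's methods name hg19 as the genome, Rsubread as the aligner and featureCounts with UCSC gene models for the counting, followed by edgeR for the normalization. The deposited values are log2 CPM, made by the authors with a prior count of 2. Tool versions, the use of strand and the cut-off for low expression are not given in the sources used here.

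CPM were computed from the deposited log2 values, and whole reads were recovered from them (100% within 0.05 read). A limma model (version 3.58.1 under R 4.3.3, eBayes with the trend option) gave each of the 4 groups its own mean, with 4 residual and 7.98 prior degrees of freedom, and Benjamini-Hochberg adjustment over the 13842 genes. All 83 members passed the filter of 0.5 CPM in at least 2 libraries. A gene was called at an adjusted p below 0.01 and over 2-fold. Folds against a group without reads are limits, computed against 3 reads in a library, and those against a group of 1 to 3 reads in a library are ratios of summed reads with an exact binomial interval. The steps were tested on simulated data. Tables came from pandas 2.3.3 and figures from matplotlib 3.10.9, under Python 3.11.15.

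Coordinates and exon lengths are those of GENCODE v44 lifted to GRCh37, matched by symbol for 83 members. Promoters are those of RefSeq (GRCh38.p14), and *BARX2*, *NKX2-5* and *DLX3* were among the 32 members without an entry.

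Members and gene lists were chosen with earlier results of these data known. Some members are counted but not reported one by one here. Otherwise the text names all HOX genes, members called between vectors or in the difference between lines, of the non-HOX members the 6 largest rises and falls between lines at 5 CPM or more, the TALE cofactors, the highest member of each class, and list genes called with *MALINC1*. *MSX1*, *ISL1*, *ISL2*, *ONECUT2*, *IRX1*, *IRX2*, *IRX5*, *DLX1* and list genes called only between the lines, with *EZH2*, were named after their values were seen. Alternatives were another pseudocount, filter, scaling and test, a fit of 4 libraries, a replicate block and leaving out each library.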

Additional observations from a re-analysis of the deposited data

Results flagged for a closer look

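The change with *MALINC1* differed between the 2 lines for 11 homeobox genes, 9 of which are given here, by limma's test of the difference at an adjusted p below 0.01 and over 2-fold. Values are the log2 change in DCIS.COM minus that in MCF10A. The difference was 2.58 for *BARX2*, 1.28 for *ZFHX3*, 1.27 for *HOXA3*, -1.1 for *TGIF2* and -1.94 for *ESX1*, and these 5 calls held when any 1 library was left out. It was 1.95 for *ZEB2*, 1.92 for *POU2F3*, 1.55 for *DLX3* and -2.01 for *HOPX*, and these 4 calls ended when certain single libraries were left out, with an adjusted p of up to 0.0171 for *ZEB2*, 0.0199 for *POU2F3*, 0.0310 for *DLX3* and 0.0135 for *HOPX*. *BARX2* was at 3 reads or fewer in every MCF10A library, and *ZEB2*, *DLX3* and *HOPX* were so in every DCIS.COM library. The fitted change on that side, between libraries of 3 reads or fewer, enters the difference and was -0.28 for *BARX2*, 0.46 for *ZEB2*, 0.68 for *DLX3* and 0.00 for *HOPX*. Without it the difference of *DLX3* is under 2-fold. In the line in which each was read, *BARX2* rose, *HOPX* rose and *ZEB2* fell with *MALINC1*, while *DLX3* had -0.87 (SE 0.29, adjusted p = 0.0233).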

How the results depend on the processing

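The counts of called members kept their size within 1.5 times under most alternatives. Without a fold limit they were 26 (6 HOX) for the vector in MCF10A, 20 (2 HOX) for the vector in DCIS.COM, 61 (10 HOX) for the lines with pLOC-*MALINC1* and 25 (5 HOX) for the difference between the vector effects. The count of 5 for the vector in DCIS.COM became 2 with a pseudocount of 0.5 CPM, 1 with 1 CPM, 2 without the trend and 1 in a fit of its 4 libraries alone, and its HOX count of 0 became 1 under quantile normalization. With a pseudocount of 1 CPM, which shrinks the fold of low genes, the lines with pLOC-empty gave 26 (5 HOX) and the difference 7. Leaving out 1 library gave 7 to 10 members (HOX 1 to 3) for the vector in MCF10A, 2 to 5 (HOX 0 in each case) for the vector in DCIS.COM, 42 to 44 (HOX 10 to 11) for the lines with pLOC-empty, 36 to 40 (HOX 5 to 7) for the lines with pLOC-*MALINC1* and 7 to 12 (HOX 1 to 2) for the difference. Of 1359 alternative values of the 76 called values of named genes, 0 were reversed, 1251 kept the call and 108 lost it, and the cause was not tested beyond the settings' own construction. Depth limits the low genes most: members at 3 reads or fewer in a line have only a limit or a wide interval.

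Libraries with the same replicate number did not deviate together (correlations from -0.067 to 0.038), so the numbers were not taken as pairs. With a replicate block the counts were 9, 5, 44, 40 and 11 members, of which 1, 0, 10, 7 and 1 were HOX genes, in the order vector in MCF10A, vector in DCIS.COM, lines with pLOC-empty, lines with pLOC-*MALINC1* and difference.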
